A study of Homo sapiens with 24 samples.

Results

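The insulin-like growth factor (IGF) axis was described in the diffuse midline glioma cell line HSJD-DIPG-007 through 10 genes, of 58676 gene identifiers in the count table. The genes were the ligands IGF1 and IGF2, the receptors IGF1R and IGF2R, and the binding proteins IGFBP2 to IGFBP7. The group was chosen by earlier results on these data, for the time-dependent response of IGFBP5 to treatment, so the values of IGFBP5 are given as a description without a test, and 8 of the other 9 genes were tested, since IGF1 had no reads. Cells carried H3F3A K27M and ACVR1 R206H and a PIK3CA genotype labelled MIS, which the study defines as missense, in treated and vehicle cultures alike. Spheroid cultures received, 1 day after plating, either vehicle or LLY-283, an inhibitor that binds the S-adenosylmethionine pocket of the arginine methyltransferase PRMT5, at the concentration that inhibits growth by 40%. RNA was sequenced from each treatment group after 0, 1, 2, 3, 5, 7 and 10 days. Each treatment group had 3 libraries at days 0 and 5, 2 at day 7 and 1 at each of the other days, which gives 24 libraries. The model is 1 cell line, the study describes its libraries as technical repeats, and p-values then measure only the spread between these libraries. The medium, with a further dose, was replaced after 5 days according to the methods, so days 7 and 10 differ from the earlier days in that respect too.

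IGF1 and IGF2 are secreted peptides that bind IGF1R, a receptor tyrosine kinase that signals through IRS adaptors to PI3K, AKT and mTOR. IGF2R, the cation-independent mannose 6-phosphate receptor, takes up IGF2 and carries it to lysosomes and does not signal as a kinase. Binding proteins hold the peptides outside the cell, where they can limit or prolong access to IGF1R, and proteases such as PAPPA, HTRA1 and ADAM9 release the peptides by cutting them. IGFBP2 is abundant in neural progenitors and gliomas, and IGFBP7 binds IGFs only weakly. No IGF peptide was named among the growth factors added to the medium, while the B-27 supplement contains insulin.

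The genes are given by their place on GRCh38, the build of the counts (hg38). IGFBP2 (chr2:216632828-216664436, plus strand) and IGFBP5 (chr2:216672105-216695549, minus strand) are neighbours, with 7668 bases between the ends of their annotated genes. IGFBP3 lies at chr7:45912245-45921874 on the minus strand. The promoters of these 3 genes are shown because their RNAs took different courses, which the results below describe. They are the 250 bases before the start of the MANE Select transcript, from RefSeq (GRCh38.p14), 5′ to 3′ on the strand of the gene, and capitals mark TATA-type motifs (TATAAA and the forms TATTTA and also TATATA) and GC boxes (GGGCGG) on either strand.
IGFBP5 promoter, chr2:216695550-216695799: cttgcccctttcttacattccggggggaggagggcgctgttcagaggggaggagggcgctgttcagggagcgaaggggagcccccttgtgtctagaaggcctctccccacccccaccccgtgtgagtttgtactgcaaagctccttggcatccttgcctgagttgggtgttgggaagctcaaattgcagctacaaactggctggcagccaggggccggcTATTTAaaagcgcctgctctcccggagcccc
IGFBP2 promoter, chr2:216633170-216633419: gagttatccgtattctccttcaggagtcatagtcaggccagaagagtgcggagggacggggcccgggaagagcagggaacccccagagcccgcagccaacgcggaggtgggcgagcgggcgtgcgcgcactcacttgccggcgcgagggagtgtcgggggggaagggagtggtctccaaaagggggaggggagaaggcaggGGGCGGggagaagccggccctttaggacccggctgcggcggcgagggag
IGFBP3 promoter, chr7:45921273-45921522: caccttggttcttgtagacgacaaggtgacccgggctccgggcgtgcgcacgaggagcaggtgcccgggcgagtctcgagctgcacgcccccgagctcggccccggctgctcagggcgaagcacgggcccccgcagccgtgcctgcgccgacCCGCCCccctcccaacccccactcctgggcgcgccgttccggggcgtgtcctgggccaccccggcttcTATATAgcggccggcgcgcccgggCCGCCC
The IGFBP5 window held a TATA-type motif that began 31 bases before the start and no GC box. The IGFBP3 window held a TATA-type motif 30 bases before the start and 2 GC boxes, and the IGFBP2 window held 1 GC box and no TATA-type motif. Among 34943 promoter windows of the same length, 20.3% held a TATA-type motif and 42.5% a GC box, at any place and on either strand. The share with a TATA-type motif near 30 bases before the start was not counted. Windows were matched for 7 of the 10 genes, and IGFBP4 was the other one with a TATA-type motif, 29 bases before the start. The letters of a motif are a description and show no binding. Exons of IGF2 overlap INS-IGF2 on the same strand and IGF2-AS on the other. Exons of IGFBP5 overlap DIRC3-AS1 and those of IGFBP7 overlap POLR2B and IGFBP7-AS1, all on the opposite strand. The kit kept strand, but the strand setting of the counting is not given in the sources used here, so reads of these pairs may not be told apart.

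Totals lay between 13835205 and 23190369 estimated counts per library. Levels are given as CPM, which is counts relative to library size, after TMM scaling over the 24 libraries, with scaling factors between 0.958 and 1.04. The glioma label was checked against 8 markers of glioma and oligodendrocyte precursors, of which 7 averaged at least 1 CPM, including PDGFRA and OLIG2, and SOX10 stayed below. Markers of microglia and macrophages summed to at most 0.884 CPM over 6 genes, with TYROBP and C1QA at 0 counts in every library. Of 6 endothelial markers, 1 averaged at least 1 CPM. All 15 fibroblast markers averaged at least 1 CPM, and 3 libraries stood apart in some of them, which is described with IGFBP7. At day 7 the LLY-283 library labelled repeat 2 stood against its label, and the vehicle library of that number lay between the treatment groups. On a scale where the mean vehicle library of day 5 is at 0% and the mean LLY-283 library of day 5 at 100%, over the 4304 genes called at day 5, the day 7 vehicle libraries lay at -2.68% and 47.3% and the day 7 LLY-283 libraries at 73.0% and -7.81%. Day 7 levels that are quoted below are therefore given library by library, though not for every gene. A statement on daily means that includes day 7 is named as such. On the same scale the day 0 libraries of both treatments lay between 18.2% and 32.8%, and the single day 10 libraries at 60.6% in vehicle and 96.2% with LLY-283, so the day 10 vehicle library stood apart from vehicle at day 5. Its 6 endothelial markers summed to 25.9 CPM, against 4.59 to 12.4 CPM in the other libraries. In bulk RNA, fewer cells of a type and less RNA per cell cannot be told apart.

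IGFBP2 to IGFBP5 were the most abundant RNAs of the axis per kilobase in vehicle at day 0. The receptors followed, and IGFBP6, IGFBP7 and the ligands were lowest. Levels of different genes were compared per kilobase of exon. In vehicle at day 0, IGFBP2 stood at 67.1 ± 2.56 CPM per kb (SD, n = 3), the highest of the 10 genes. IGFBP4, IGFBP5 and IGFBP3 followed at 15.7 ± 0.835, 14.6 ± 0.0657 and 11.2 ± 0.713 CPM per kb. The gap between IGFBP4 and IGFBP5 was little more than the SD of IGFBP4, so this pair cannot be ordered from these libraries. IGF2R was at 5.90 ± 0.192 and IGF1R at 1.49 ± 0.0956 CPM per kb, so the uptake receptor was above the signalling receptor. IGFBP6 (0.806 ± 0.138), IGFBP7 (0.387 ± 0.0342) and IGF2 (0.128 ± 0.0385 CPM per kb) were lowest of the genes with reads. IGF1 had 0 counts in all 24 libraries. A count of 0 allows up to 3 counts, which is between 0.129 and 0.217 CPM depending on the library and covers counting error only. The order depends in part on the length used, since IGFBP3 ranked 4 with the union of exons and 2 with its MANE Select transcript (19.6 ± 1.25 CPM per kb). IGFBP2 ranked 1 with either length, at 225 ± 8.58 CPM per kb over its MANE Select transcript. At day 5 with LLY-283, IGFBP5 (20.4 ± 0.264 CPM per kb) stood above IGFBP4 (17.9 ± 0.827), whereas in vehicle at day 5 IGFBP4 (19.7 ± 0.0646) stood above IGFBP5 (12.9 ± 0.686). This change of order restates the IGFBP5 response that chose the group and supports no further statement. IGFBP3 no longer stood above both receptors at day 5. In vehicle it was at 2.83 ± 0.792 CPM per kb, below IGF2R (6.27) and within its SD of IGF1R (2.39). With LLY-283 it was at 1.51 CPM per kb, below both IGF2R (6.43) and IGF1R (2.42). The order with IGF1R depends on the length used. Over MANE Select transcripts IGFBP3 was above IGF1R in vehicle (4.95 ± 1.38 against 2.73 ± 0.109). With LLY-283 the pair could not be ordered by that length (2.63 ± 0.422 against 2.76 ± 0.118).

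**Figure D1:**
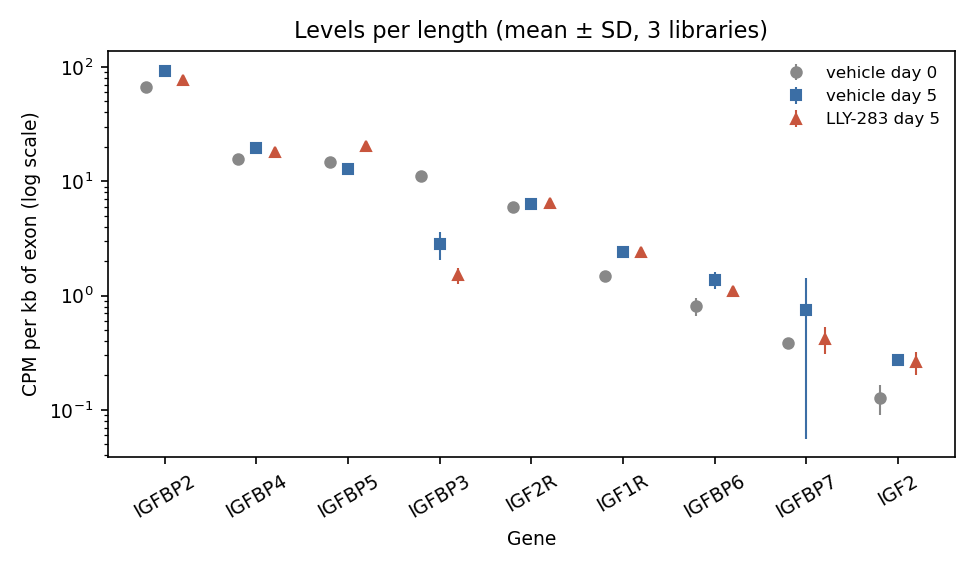
Level per kilobase of exon (CPM per kb, log scale) of the 9 genes with reads, in vehicle at day 0, vehicle at day 5 and LLY-283 at day 5, as mean ± SD of 3 libraries. IGFBP2 is highest in each group, and IGFBP5 lies above IGFBP4 only with LLY-283 at day 5, by this measure of length. That order restates the IGFBP5 response that chose the group.

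IGFBP5, a secreted binding protein that also attaches to the extracellular matrix, was lower at day 2 than at day 0 in both treatment groups, which then parted. At day 0 it stood at 94.9, 94.8 and 94.1 CPM in the vehicle libraries and at 101, 97.8 and 104 CPM in the LLY-283 libraries. These did not overlap on this scale, but on library size alone the highest vehicle value was 99.0 and the lowest LLY-283 value 98.9 CPM. At day 1 vehicle had 73.1 and LLY-283 64.6 CPM, and at day 2 the values were 57.7 and 54.3 CPM. Both single libraries of day 2 were thus below every library of day 0. At day 3 vehicle had 61.8 CPM and LLY-283 128 CPM, a ratio of 2.07 between single libraries. At day 5 the vehicle libraries had 85.7, 78.6 and 86.7 CPM and the LLY-283 libraries 130.1, 132 and 134 CPM. Every LLY-283 library of day 5 was above every vehicle library of that day, and the fitted difference was 0.68 on the log2 scale, or 1.61-fold. From day 0 to day 5 the fitted change was -0.19 in vehicle and 0.41 with LLY-283. The higher level was not seen at the later days. At day 7 the vehicle libraries had 109 and 84.7 CPM and the LLY-283 libraries 99.2 and 87.7 CPM, so the groups overlapped, and by the 2 libraries labelled repeat 1 alone vehicle was the higher. At day 10 vehicle had 82.3 CPM and LLY-283 73.6 CPM in 1 library each, where the vehicle library stood apart as described above. These values chose the gene and support no further statement.

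**Figure D2:**
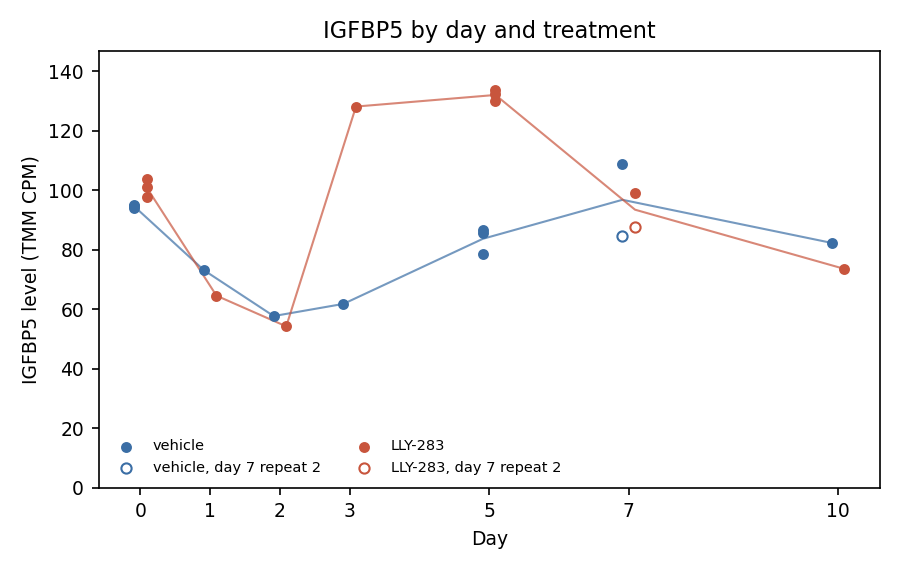
IGFBP5 level (TMM CPM) in each of the 24 libraries by day and treatment, with lines through the daily means. Open circles are the day 7 repeat 2 libraries. The LLY-283 libraries lie at 128 to 134 CPM at days 3 and 5, and the treatment groups are close on the other days.

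The comparison at day 5 asks which RNAs differ between LLY-283 and vehicle when 3 libraries stand on each side. IGFBP2 was lower with LLY-283, at 391, 352 and 359.5 CPM against 450, 445 and 423 CPM in vehicle. The groups did not overlap. The difference was -0.23 on the log2 scale (SE 0.04), or 0.850-fold, and passed the quasi-likelihood test of edgeR (Benjamini-Hochberg adjusted p = 1.16e-05 over 16491 genes tested). IGFBP2 was the only called member among the 8 that passed the filter on low counts, where 14.1% of all genes tested were called lower and 12% higher. The genes are called at an adjusted p under 0.01. The neighbours IGFBP2 and IGFBP5 thus had fitted differences of opposite sign.

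IGFBP3, the main carrier of IGFs in serum, stood at 7.12, 5.68 and 7.85 CPM with LLY-283 and at 11.4, 10.3 and 17.1 CPM in vehicle at day 5. The groups did not overlap, and the vehicle libraries were spread more widely than the LLY-283 libraries. The difference was -0.87 (SE 0.21), or 0.546-fold, and missed the threshold (edgeR adjusted p = 0.0128). Without vehicle repeat 3, the highest library, the difference was -0.64 and passed (adjusted p = 9.29e-04). It also passed without vehicle repeat 2 (-1.02, adjusted p = 0.00143) and in DESeq2 (-0.89, adjusted p = 1.72e-05), so the call depends on the processing while the sign did not change in any of 13 alternatives.

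The other tested members gave no call at day 5. IGFBP4, which inhibits IGF action until it is cut by PAPPA, had 40.7, 40.2 and 37.3 CPM with LLY-283 and 43.2, 43.4 and 43.5 CPM in vehicle. The groups did not overlap, but the difference of -0.11 (SE 0.05) had an adjusted p of 0.0967 in edgeR. IGF1R differed by 0.04 (SE 0.06), IGF2R by 0.06 (SE 0.04) and IGF2 by -0.05 (SE 0.25). The SE was small for both receptors and large for IGF2, which had 24 to 42 counts per library at day 5. IGFBP6, a binding protein with a preference for IGF2, differed by -0.30 (SE 0.27), and IGFBP7 by -0.76 (SE 0.62). Over the 8 tested members the median difference was -0.17, beside 0.02 over all genes tested.

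At day 0, 0 of the 8 tested members were called by edgeR and 0 had an unadjusted p under 0.05. DESeq2 called 0 as well. Across all genes 0.0169% were called, which is 3 of 17780, and 1012 had an unadjusted p under 0.05. The fitted differences of the tested members lay between -0.28 for IGF2 and 0.38 for IGFBP7, the genes with the fewest counts. For the more abundant IGFBP2, IGFBP3, IGFBP4, IGF1R and IGF2R they lay between -0.05 and 0.05.

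The comparison of day 5 with day 0 asks how the axis changed during culture. In vehicle, 4 of the 8 tested members rose and 1 fell, where 22.2% of all genes tested were called higher and 16.7% lower. IGFBP3 fell most. It stood at 48.3, 50.4 and 54.7 CPM at day 0 and at 11.4, 10.3 and 17.1 CPM at day 5, a change of -2.01 (SE 0.16, edgeR adjusted p = 1.54e-04), or to 0.248 of the starting level. All day 5 libraries were below all day 0 libraries by a wide margin.

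IGF1R rose in vehicle from 20.02, 22.3 and 20.02 CPM to 34.8, 33.2 and 32.1 CPM, without overlap. The change was 0.67 (SE 0.07, edgeR adjusted p = 1.68e-09), or 1.59-fold. IGFBP2 rose from 305, 321 and 329 CPM to 450, 445 and 423 CPM, by 0.45 (SE 0.04, edgeR adjusted p = 5.88e-11). IGFBP4 rose from 33.5, 36.7 and 33.5 CPM to 43.2, 43.4 and 43.5 CPM, by 0.31 (SE 0.06, edgeR adjusted p = 2.91e-05). In each of these genes all libraries of day 5 were above all libraries of day 0. IGF2 rose by 1.08 (SE 0.30, edgeR adjusted p = 0.00381), from 0.604, 1.02 and 1.12 CPM to 1.99, 2.10 and 1.77 CPM. Its day 0 libraries held 12, 21 and 22 counts, and the call was lost in 5 of 13 alternatives, DESeq2 among them (adjusted p = 0.0166). Leaving out vehicle day 0 repeat 1, the lowest library, gave 0.86 (adjusted p = 0.0237), and leaving out vehicle day 5 repeat 1 or repeat 2 gave 1.08 and 1.03 (adjusted p = 0.0125 and 0.0147). IGF2R had a change of 0.07 (SE 0.04, edgeR adjusted p = 0.150) and IGFBP6 one of 0.74 (SE 0.29, edgeR adjusted p = 0.0357), and neither was called. The median change of the 8 tested members was 0.56, beside -0.02 over all genes tested.

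With LLY-283, the members called between day 0 and day 5 were again IGF2, IGF1R, IGFBP2 and IGFBP4, higher, and IGFBP3, lower. In this treatment group 22.9% of all genes tested were called higher and 19.5% lower. IGFBP3 stood at 54.4, 51.5 and 50 CPM at day 0 and at 7.12, 5.68 and 7.85 CPM at day 5, a change of -2.89 (SE 0.08, edgeR adjusted p = 9.40e-19). IGF1R changed by 0.76 (SE 0.06), IGF2 by 1.31 (SE 0.30), IGFBP4 by 0.21 (SE 0.05) and IGFBP2 by 0.16 (SE 0.03), with edgeR adjusted p-values of 9.18e-11, 6.77e-04, 0.00170 and 2.31e-04. The groups of day 0 and day 5 did not overlap in these genes. The call of IGFBP4 was lost in 5 of 13 alternatives, among them DESeq2 (0.20, adjusted p = 0.0232) and leaving out LLY-283 day 0 repeat 2 (adjusted p = 0.0101), day 0 repeat 3 (adjusted p = 0.0164) or day 5 repeat 2 (adjusted p = 0.0120). The call of IGFBP2 was lost in the shared fit of 22 libraries (0.15, adjusted p = 0.0226). IGF2R, with 136.7, 136.7 and 137.5 CPM at day 0 and 149, 147 and 140.1 CPM at day 5, missed the threshold (0.10, SE 0.03, edgeR adjusted p = 0.0124). The median change was 0.19, beside 0.01 over all genes tested.

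**Figure D3:**
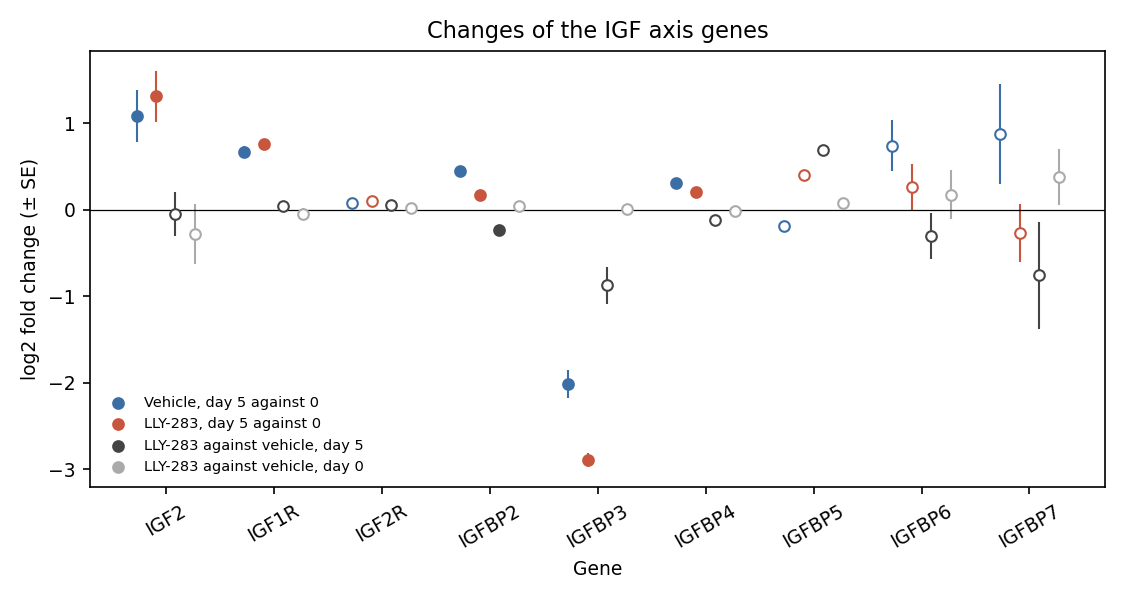
Fitted log2 fold changes ± SE of 9 members in 4 comparisons with 3 libraries a side. Filled points are called at an adjusted p under 0.01 and open points are not called. IGFBP5 is drawn open because no test of it is reported. Each SE was computed from the fitted change and the statistic of its quasi-likelihood test. The bar of IGFBP5 is therefore no separate measure of spread and supports no statement, since the gene was chosen by its response. IGFBP3 falls from day 0 to day 5 by 2.01 in vehicle and 2.89 with LLY-283.

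Whether the change from day 0 to day 5 differed between treatments was tested as a difference of changes over the 12 libraries of these days. IGFBP2 was called, with a difference of -0.28 (SE 0.05, edgeR adjusted p = 2.23e-04). It rose in both treatment groups, and by less with LLY-283. The call was lost in the shared fit of 22 libraries (adjusted p = 0.0147), which called 51 of all genes against 2742. In all, 1 of the 8 tested members was called, beside 14.9% of all genes tested. IGFBP3 had a difference of -0.87 (SE 0.22) and missed the threshold (edgeR adjusted p = 0.0161), with a call in DESeq2 (adjusted p = 0.00201), without vehicle day 5 repeat 2 (adjusted p = 0.00317) and without vehicle day 5 repeat 3 (-0.64, adjusted p = 0.00110). For IGF1R the difference was 0.10 (SE 0.09), for IGFBP4 -0.10 (SE 0.08) and for IGF2R 0.04 (SE 0.05). The corresponding value for IGFBP5, given without a test, was 0.61.

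A treatment effect that varied over days 0 to 7 (interaction term, 22 libraries) was called for 0 of the 8 tested members by edgeR, beside 0.0289% of all genes tested (6 of 20756, with 3166 at an unadjusted p under 0.05). IGFBP2 had an unadjusted p under 0.05 as the only member (edgeR adjusted p = 0.152). DESeq2 called this 1 member (adjusted p = 0.00620). Without both day 7 repeat 2 libraries, IGFBP2 was called by edgeR too (adjusted p = 0.00518), and without all 4 day 7 libraries the adjusted p was 0.00235. The call of IGFBP2 thus changed when the day 7 repeat 2 libraries were left out. Over 33 alternatives of this test the count of all genes called ranged from 0 to 2002, beside 6. It differed from 6 in at least 29 of them, so changes in calls were not limited to IGFBP2. The counts of all genes in the settings that called IGFBP2 are not given here. How far its call stood out from other genes in those settings was not tested.

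The single libraries show when each course was run. At day 1 IGFBP3 had 17.0 CPM in vehicle, beside 15.3 CPM with LLY-283, so the levels of both were already nearer to day 5 than to day 0. It then stood at 11.7 and 12.5 CPM at day 2, at 13.8 and 12.7 CPM at day 3, and at 3.46 and 2.66 CPM at day 10, vehicle first in each pair. The treatment groups thus stayed close on days 1, 2 and 3, and the day 10 levels were the lowest of all. At day 7 the labelled groups overlapped in IGFBP3, at 15.95 and 7.36 CPM in vehicle and 6.79 and 10.9 CPM with LLY-283. By repeat 1 alone vehicle was the higher there, and by repeat 2 alone LLY-283. The separation of day 5 was thus not seen at day 7. IGFBP2 had 429 and 410.5 CPM at day 1, 467.5 and 418 CPM at day 2 and 460.4 and 446 CPM at day 3. It was back at 308 and 295.5 CPM at day 10, which is near the level of day 0. IGFBP2 and IGFBP4 were lower with LLY-283 than in vehicle on each of days 1, 2, 3, 5, 7 and 10 by the daily means, and by 0.836 and 0.909 times at day 5. Some gaps between single libraries were small, with ratios of 0.989 for IGFBP4 at day 1 and 0.969 and 0.961 for IGFBP2 at days 3 and 10. The shared sign over days was not tested. At day 7 IGFBP4 had 53.6 and 53.6 CPM in vehicle, while the LLY-283 libraries had 47 and 46.7 CPM. IGFBP2 at day 7 had 449 and 471 CPM in vehicle and 400.1 and 418 CPM with LLY-283. In both genes the labelled groups of day 7 were separate, as they were for IGF2R and IGFBP7. For IGF2, IGF1R, IGFBP3, IGFBP5 and IGFBP6 they overlapped. Over the genes called at day 5 the repeat 2 libraries lay in reverse order.

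IGF1R had 24.2 and 23.7 CPM at day 1 and 20.7 and 21.2 CPM at day 2, vehicle first. At day 10 it reached 42.2 CPM in vehicle but 33.4 CPM under LLY-283, the largest gap of any day for this receptor. The day 10 vehicle library is the one at 60.6% on the treatment scale and highest in endothelial markers, and the part of either in this gap was not tested. Of the genes with reads IGF2R moved least, between 117 and 149 CPM over the 24 libraries, a ratio of 1.27 between highest and lowest. IGFBP3 moved most, with a ratio of 20.6. IGF2 lay between 0.540 and 2.66 CPM, and its highest library was LLY-283 at day 3 with 48 counts, the same library in which IGFBP5 first parted from vehicle. Days with 1 library a group entered the interaction test but were not tested on their own.

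**Figure D4:**
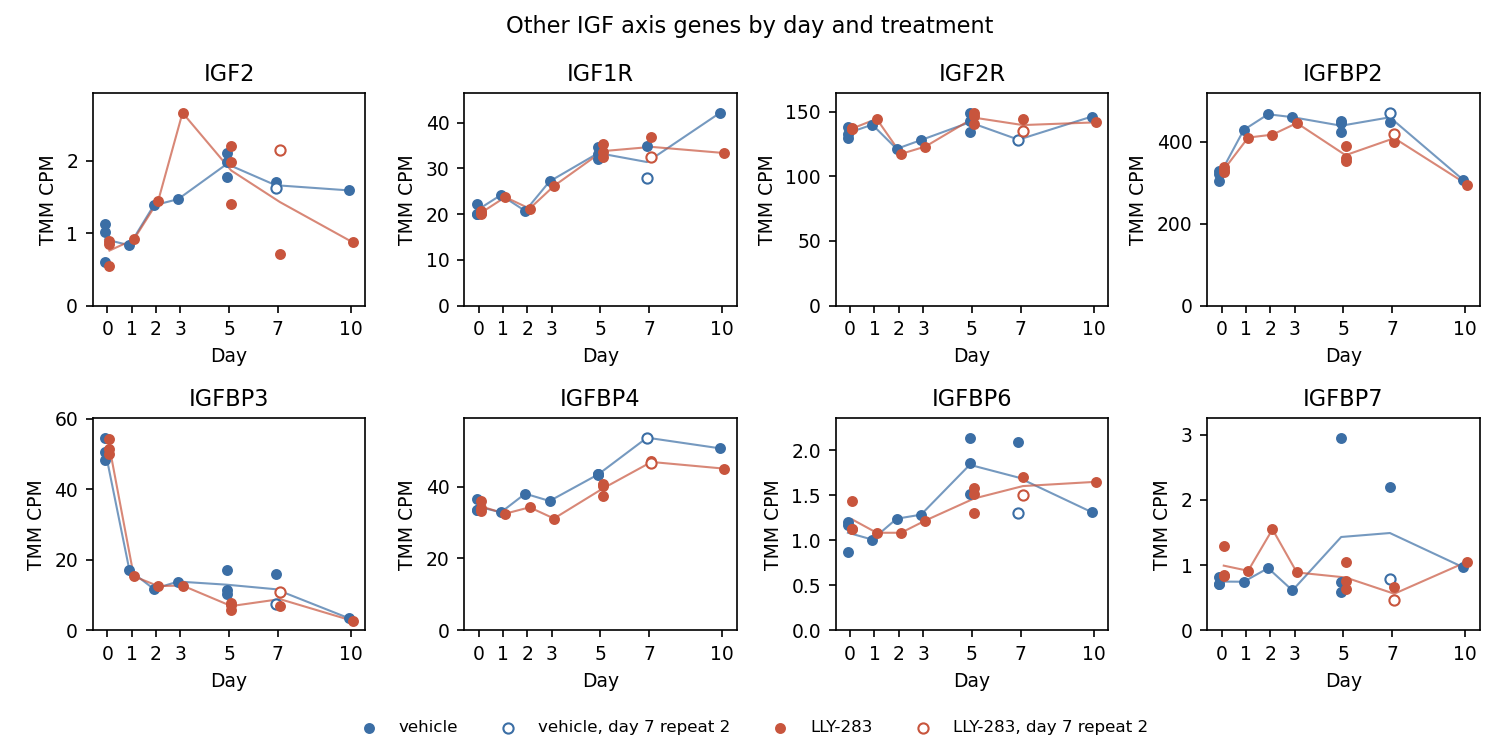
Levels (TMM CPM) of 8 members in each of the 24 libraries by day and treatment, with lines through the daily means and open circles for the day 7 repeat 2 libraries. IGFBP3 is lower at day 1 than at day 0 in both treatment groups, IGF1R is higher from day 3 on, and IGF2R stays between 117 and 149 CPM.

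IGFBP7, which is found in the matrix around vessels and fibroblasts, was highest in 3 libraries. It stood at 2.96 CPM in vehicle day 5 repeat 3, at 2.20 CPM in vehicle day 7 repeat 1 and at 1.55 CPM in LLY-283 at day 2. The other 21 libraries lay between 0.464 and 1.30 CPM. LLY-283 at day 2 held 30 counts and LLY-283 day 0 repeat 2, the next highest, 23 counts. That gap is small for such counts, so IGFBP7 alone does not set the day 2 library apart. The same 3 libraries were above all others in 4 of the 15 fibroblast markers, namely COL1A1, COL1A2, COL3A1 and FN1. FN1, which encodes fibronectin, lay between 26.01 and 60.4 CPM in the 3 libraries and between 0.758 and 8.19 CPM in the others. COL1A1 lay between 31.2 and 53.9 CPM against 4.58 to 10.7 CPM, and COL3A1 between 5.17 and 9.38 CPM against 0 to 0.742 CPM. The remaining markers of the list did not place all 3 libraries above the others.

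The summed level of the 15 fibroblast markers did not single out these libraries, and it was highest in LLY-283 at day 10, at 699.5 CPM. Markers abundant in every library weigh most in the sum, such as COL5A2 with 189 to 315.5 CPM in the others. The sum therefore cannot decide on the less abundant markers. POSTN and COL5A2 in the 3 libraries lay within the range of the others. PRRX1 lay between 68.3 and 76.2 CPM in the 3 libraries and between 72.7 and 93.6 CPM in the others. The sum over the 15 markers was 414, 423 and 608.5 CPM in vehicle at day 5 and 559, 537 and 533 CPM with LLY-283. At day 0 it lay between 446 and 460.4 CPM in vehicle and between 454 and 463 CPM with LLY-283. In the day 5 comparison 3 of the 14 tested fibroblast markers were called higher and 0 lower, beside 12% and 14.1% of all genes. Without vehicle day 5 repeat 3, the IGFBP7 difference at day 5 turned from -0.76 to 0.28 and its change in vehicle from day 0 to day 5 from 0.87 to -0.16, none of them called by edgeR. IGFBP3 in the 3 libraries lay between 12.5 and 17.1 CPM, and it was the highest of its group in vehicle day 5 repeat 3 (17.1 CPM) and in vehicle day 7 repeat 1 (15.95 CPM against 7.36 CPM). The part of the FN1-high libraries in the IGFBP7 and IGFBP3 levels was not tested. For IGFBP2 the 3 libraries lay between 418 and 449 CPM, within the range of the others.

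**Figure D5:**
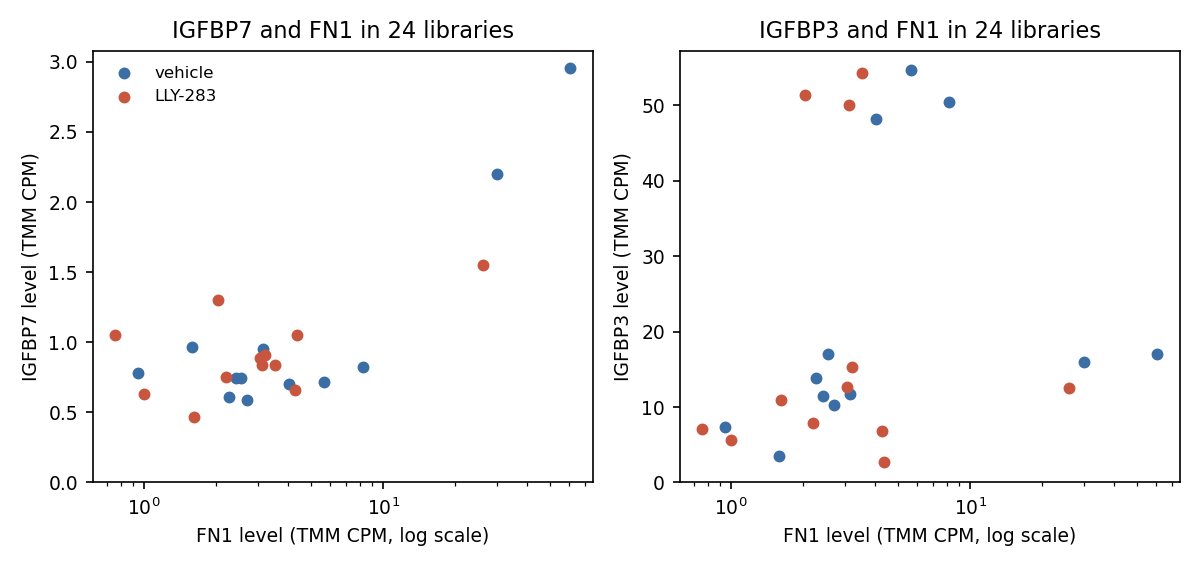
IGFBP7 (left) and IGFBP3 (right), in TMM CPM, against FN1 (TMM CPM, log scale) in the 24 libraries, coloured by treatment. The 3 libraries with FN1 of at least 26.01 CPM hold the highest IGFBP7 levels, from 1.55 to 2.96 CPM, whereas IGFBP3 is highest in the day 0 libraries, at 48.3 to 54.7 CPM.

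The genes around the axis were read from lists of carriers and proteases, of regulators of IGF RNA and of receptor and PI3K-AKT signalling. Of the 10 carriers and proteases, 4 were tested at day 5 and 1 was called higher, beside 12% of all genes. ADAM9, a membrane protease that can cut binding proteins, stood at 184 ± 6.58 CPM with LLY-283 and at 163 ± 6.59 CPM in vehicle (SD, n = 3), a difference of 0.20 (SE 0.04, edgeR adjusted p = 1.14e-04). In vehicle it was also the 1 called gene of this list among 4 tested between day 0 and day 5 (22.2% of all genes rose), with a rise of 0.48 (SE 0.04, edgeR adjusted p = 3.56e-11). The day 7 libraries of ADAM9 overlapped, at 152 and 159 CPM with LLY-283 and at 149 and 171 CPM in vehicle. PAPPA, the protease that cuts IGFBP4, stayed at 0.207 ± 0.126 CPM in vehicle at day 5, and HTRA1 at 57.7 ± 1.42 CPM.

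Of the 6 regulators of IGF RNA, 5 were tested at day 5 and 1 was called higher, beside 12% of all genes. H19, the non-coding RNA of the imprinted locus it shares with IGF2, was higher with LLY-283, at 68.9 ± 4.03 CPM against 47.2 ± 1.26 CPM (0.57, SE 0.05, edgeR adjusted p = 6.03e-10). Vehicle started from 7.94 ± 1.31 CPM of H19 at day 0, and the rise to day 5 was 2.56 (SE 0.08, edgeR adjusted p = 8.19e-19). In vehicle 3 genes of this list rose and 1 fell among 6 tested, where 22.2% of all genes rose and 16.7% fell. IGF2BP2 and IGF2BP3, which bind IGF2 RNA, rose by 0.74 (SE 0.04, edgeR adjusted p = 4.60e-14) and 0.26 (SE 0.04, edgeR adjusted p = 6.38e-06). Neither was called between treatments at day 5. IGF2BP3 narrowly missed the threshold (-0.13, SE 0.04, edgeR adjusted p = 0.0118), and IGF2BP2 differed by -0.05 (SE 0.04, edgeR adjusted p = 0.360).

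Of the 31 signalling genes, 28 were tested at day 5, of which 7 were called higher and 3 lower (12% and 14.1% over all genes), with a median difference of 0.06. TSC1 and TSC2, the partners of the complex that restrains mTOR, were higher with LLY-283. TSC1 stood at 58.3 ± 0.934 against 45.8 ± 1.02 CPM (0.37, SE 0.05, edgeR adjusted p = 8.01e-07), and TSC2 at 119 ± 2.23 against 100.5 ± 5.61 CPM (0.26, SE 0.04, edgeR adjusted p = 1.58e-05). At day 7 the treatment groups overlapped in both. TSC1 was at 46.4 and 55.0 CPM with LLY-283 and at 45.2 and 48.4 CPM in vehicle. TSC2 was at 93.9 and 114.9 CPM with LLY-283 and at 95.6 and 103 CPM in vehicle. IRS1, an adaptor that binds IGF1R and the insulin receptor, was lower, at 15.3 ± 0.679 against 21.2 ± 1.27 CPM (-0.44, SE 0.08, edgeR adjusted p = 5.96e-05). Its day 7 libraries overlapped, at 15.3 and 25.7 CPM with LLY-283 and at 16.4 and 20.5 CPM in vehicle. The related IRS2 differed in the other direction at day 5 without a call (0.51, SE 0.16, edgeR adjusted p = 0.0141). From day 0 to day 5 in vehicle, 13 of 29 tested signalling genes rose and 5 fell (22.2% and 16.7% over all genes). FOXO3, a transcription factor that AKT inhibits, rose by 0.62 (SE 0.05, edgeR adjusted p = 3.91e-12). PIK3R1, a regulatory subunit of PI3K, rose by 0.49 (SE 0.05, edgeR adjusted p = 6.26e-10). GRB10, an adaptor that restrains IGF1R and the insulin receptor, fell by 0.40 on the log2 scale (SE 0.04, edgeR adjusted p = 2.13e-10). The insulin receptor INSR, which also binds IGF2, showed 19.04 ± 0.712 CPM in the vehicle libraries of day 5, and those with LLY-283 showed 19.9 ± 1.29 CPM.

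Genes with a course like that of IGFBP5 were ranked by the Pearson correlation of log2 CPM over the 24 libraries, among 14869 genes with a mean of at least 1 CPM. The libraries share day and treatment, so the correlations are a description. The ranking used the IGFBP5 values that chose the group, so gaps between treatments in the genes it picked are built into the ranking and support no statement. The likeness is also incomplete. At day 3 TFRC had 146 CPM with LLY-283 and 152 CPM in vehicle, whereas NEDD9, TM7SF2, BMF and HERPUD2 were higher with LLY-283, in single libraries. The highest were NEDD9 (0.86), a scaffold of focal adhesions, TM7SF2 (0.81), a sterol reductase, BMF (0.81), a pro-apoptotic BCL2 family protein, HERPUD2 (0.80) and the transferrin receptor TFRC (0.79). NEDD9 stood at 65.5 ± 2.69 CPM in vehicle at day 0, at 45.02 CPM at day 2 and at 59.1 ± 1.17 CPM at day 5, against 82.2 ± 3.70 CPM with LLY-283 at day 5. The lowest correlations were those of UBE3B (-0.79), FN3KRP (-0.78) and PPDPF (-0.77). At day 5 PPDPF stood at 48.6 ± 1.29 CPM in the vehicle libraries and at 31.7 ± 1.07 CPM in those with LLY-283. Within the axis no member tracked IGFBP5 closely. The correlations lay between -0.29 for its neighbour IGFBP2 and 0.36 for IGF2R, over the same 24 libraries.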

How the data were processed

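RNA of HSJD-DIPG-007 cells was measured in 24 libraries. Reads were quantified by the authors with kallisto (build hg38, version not given in the sources used here). The deposited values are estimated counts of genes, whole and without normalization. Such counts split shared reads between overlapping transcripts. Groups came from the labels. Tests used edgeR 4.0.16 in R 4.3.3 on the whole table, with TMM scaling and the filter on low counts by group. Quasi-likelihood tests (robust) gave p-values, which were adjusted after Benjamini and Hochberg. The tests were run on simulated data too, in which all genes had the same spread and no library stood apart. That check does not cover libraries that stand apart, such as those of day 7. DESeq2 1.42.0 and other scalings, filters, designs and left-out libraries were alternatives. The SE of a fitted log2 difference is its absolute value divided by the square root of the F statistic of its quasi-likelihood test. IGFBP5 was in the fitted table, but its test results are not reported. Log2 CPM for correlations used a prior count of 2. All members were named, with, from each other list, the 3 called genes of smallest p at day 5 and the 3 between day 0 and day 5 in vehicle, and the 5 highest and 3 lowest correlations with IGFBP5. PAPPA, HTRA1 and INSR, which fell outside this rule, are given as levels and were chosen after their values were seen. IRS2 also fell outside the rule and is given beside IRS1, likewise chosen after its values were seen. The members and lists were chosen with earlier results of these data known.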

Additional observations from a re-analysis of the deposited data

Results flagged for a closer look

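IGFBP2 differed between treatments in its change from day 0 to day 5, by -0.28 on the log2 scale (SE 0.05), which passed edgeR's test of the difference of changes (adjusted p = 2.23e-04). The change was 0.45 in vehicle and 0.16 with LLY-283, and all 3 libraries of day 5 were above all 3 of day 0 in both. Over 19 alternatives the difference lay between -0.32 and -0.24, and it missed the threshold in the shared fit of 22 libraries (adjusted p = 0.0147).

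IGFBP5 moved in opposite directions, with a change of -0.19 in vehicle and 0.41 with LLY-283, a difference of 0.61. All 3 vehicle libraries of day 5 lay below all 3 of day 0, and all 3 LLY-283 libraries of day 5 lay above all 3 of day 0. No test of this difference is reported, because the gene had been chosen by this response.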

How the results depend on the processing

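The count of called members at day 5 rose from 1 to 2, with IGFBP3, in DESeq2, without the filter on low counts, with at least 10 counts in every library, at an adjusted p under 0.05 and with a replicate block, and leaving out libraries gave 1 to 2. For the difference of changes it rose to 2 in DESeq2, without the filter, with at least 10 counts and at 0.05, was 0 in the shared fit of 22 libraries, and ranged from 1 to 2 without single libraries. With LLY-283 from day 0 to day 5 it was 3 in the shared fit. For the time course it was 1 in DESeq2, without both day 7 repeat 2 libraries and without all 4 day 7 libraries. At day 0 it was 0 throughout, and in vehicle it lay between 4 and 6. With the replicate block, which changed no other count of called members by over 1.5 times, IGFBP3 at day 5 had an adjusted p of 3.78e-07 in edgeR, but repeat numbers share only a number: deviations of same-numbered libraries correlated between -0.05 and 0.0059 at days 0 and 5, and 0 of 6 libraries at day 0 and 3 of 6 at day 5 correlated best with their own number. The count over all genes at day 5, 4304, was 2042 in the shared fit and reached 6060 among the alternatives. From day 0 to day 5 it ranged from 5095 to 8609 in vehicle and from 5493 to 9041 with LLY-283, beside 6652 and 7353. Whether the counts of members followed those of all genes in the same setting was not tested. For the difference of changes the count over all genes, 2742, was 51 in the shared fit and 4452 at 0.05. It ranged from 0 to 56 at day 0 and from 0 to 2002 in the time course, beside 3 and 6. In the time course it differed from 6 in at least 29 of 33 alternatives. The cause was not tested. No tested member had a reversed call. Depth limits IGF2, IGFBP6 and IGFBP7, which had at most 48 counts in a library.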
